A study of Homo sapiens with 6 samples.

Results

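TMPRSS2, ERG and 8 further ETS transcription factor genes (ETV1, ETV4, ETV5, ETS1, ETS2, SPDEF, ELF3 and EHF) were followed in VCaP cells after silencing of NEDD9. These 10 genes were taken by name from the 58735 gene identifiers of the deposited count table, as the partners of the prostate cancer gene fusion and the ETS factors of prostate epithelium. VCaP cells come from a metastasis of human prostate cancer, and the TMPRSS2-ERG fusion is present in them. One group was stably infected with a short hairpin RNA against NEDD9 (shNEDD9, 3 libraries) and its control with a non-targeting hairpin (shNTC, 3 libraries). Both lines were grown in DMEM with 10% foetal bovine serum, and the design text calls the libraries biological triplicates. The number of hairpin sequences and of independent infections per group is not given in the sources used here.

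ETS factors share a DNA-binding domain that recognises a GGAA core, and their members divide into activators and repressors that can compete for the same sites. In prostate epithelium TMPRSS2, a transmembrane serine protease gene, is switched on by androgens. The fusion places ERG, which normal prostate epithelium hardly expresses, under this control. ETV1, ETV4 and ETV5, of the PEA3 subfamily, take the place of ERG in a smaller number of prostate cancers. ELF3, EHF and SPDEF belong to the ETS factors of epithelial cells, whereas ETS1 and ETS2 respond to RAS and ERK signalling.

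Promoter sequence was taken for the member genes whose changes are described first, to show what the ETS core looks like beside them. The table of RefSeq promoters used here (build GRCh38.p14) matched 6 of the 10 members (ERG, ETS2, ETV1, SPDEF, ELF3 and EHF), with 16 starts between them; promoters of TMPRSS2, ETS1, ETV4 and ETV5 were not analysed here. The 250 bases before the start furthest upstream are given for ELF3 (chr1:202010337-202010586, plus strand), EHF (chr11:34624007-34624256, plus strand) and ERG (chr21:38660668-38660917, minus strand). ELF3 and EHF are shown because these close relatives went in opposite directions, and ERG because its own starts are what the fusion replaces. Capitals mark GGAA or its reverse complement TTCC.
ELF3: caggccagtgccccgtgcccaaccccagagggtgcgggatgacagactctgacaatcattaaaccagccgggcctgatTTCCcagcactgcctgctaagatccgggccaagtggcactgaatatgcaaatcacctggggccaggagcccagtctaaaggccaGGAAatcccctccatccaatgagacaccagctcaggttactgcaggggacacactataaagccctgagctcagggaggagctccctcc
EHF: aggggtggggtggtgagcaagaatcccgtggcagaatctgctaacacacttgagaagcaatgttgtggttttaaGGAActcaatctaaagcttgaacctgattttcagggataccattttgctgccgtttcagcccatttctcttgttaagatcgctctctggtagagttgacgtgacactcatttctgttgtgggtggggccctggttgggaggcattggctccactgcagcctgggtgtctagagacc
ERG: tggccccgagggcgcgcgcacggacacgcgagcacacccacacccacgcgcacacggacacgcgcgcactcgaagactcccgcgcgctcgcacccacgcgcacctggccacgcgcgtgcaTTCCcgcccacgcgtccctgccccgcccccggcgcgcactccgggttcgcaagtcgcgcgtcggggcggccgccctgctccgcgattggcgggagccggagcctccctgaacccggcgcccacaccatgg
The ELF3 window held 2 matches to the core, the EHF window 1 and this ERG window 1. A core match was present in 92.7% of the 35116 promoter windows of 250 bases in the table, with a median of 3 per window. A longer ETS site, CCGGAAGT on either strand, which contains the core, was found in none of the 16 member windows and in 3.42% of all windows.

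Before the members, the labels and the cells were checked. NEDD9 stood at 136.6 ± 1.03 CPM (read counts scaled to library size with TMM factors) in shNEDD9 and 354.6 ± 14.2 CPM in shNTC (SD, n = 3 each), so the targeted gene was lower in the libraries labelled as silenced. Library totals lay between 3217276 and 9902002 counts, at which the floor of 3 counts equals 0.303 to 0.932 CPM. All 9 prostate cancer cell markers examined were detected and tested. Of these, 3 rose, 4 fell and 2 were not called. Calls were common everywhere, as 71.4% of all tested genes were called, 35.5% higher and 35.9% lower. KLK3, which encodes prostate-specific antigen, rose by 1.75 on the log2 scale (SE 0.03). KRT8, a keratin gene of luminal cells, fell by 1.43 (SE 0.03) and AMACR, a peroxisomal enzyme gene, by 1.32 (SE 0.11) on the log2 scale. ERG is also a gene of endothelial cells. Of 10 endothelial markers, CDH5 had 0 counts in every library and PECAM1, KDR, TEK and TIE1 had at most 6 counts each over all libraries, while 3 were tested, of which EGFL7 rose and VWF and ESAM were not called. EGFL7 stood at 30.5 ± 3.13 CPM in shNEDD9 and 21.4 ± 3.23 CPM in shNTC, and ESAM at 7.58 ± 0.74 CPM in shNEDD9 and 7.86 ± 0.79 CPM in shNTC. The summed level of the 10 endothelial markers was 39.0 to 43.5 CPM in shNEDD9 and 30.7 to 36.3 CPM in shNTC, and its part in the ERG values was not tested. In bulk RNA, fewer cells that express a gene and less of its RNA per cell cannot be told apart.

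Of the 10 members, 7 had enough counts to be tested with edgeR's quasi-likelihood test across 13958 genes, at a Benjamini-Hochberg adjusted p under 0.05. 1 member rose and 5 fell, while SPDEF was not called. The background was dense, since 71.4% of all tested genes were called, 35.5% higher and 35.9% lower. ETS1 and ELF3 were at least 2-fold lower, as were 9.22% of the tested genes, and no member was at least 2-fold higher, against 7.67% of the tested genes. Between-group overlap was absent for 6 of the 7 tested members and for 71.8% of the tested genes. The median log2 fold change of the 7 was -0.44, with a range of -1.49 to 0.32, and that of all tested genes was 0.00.

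**Figure D1:**
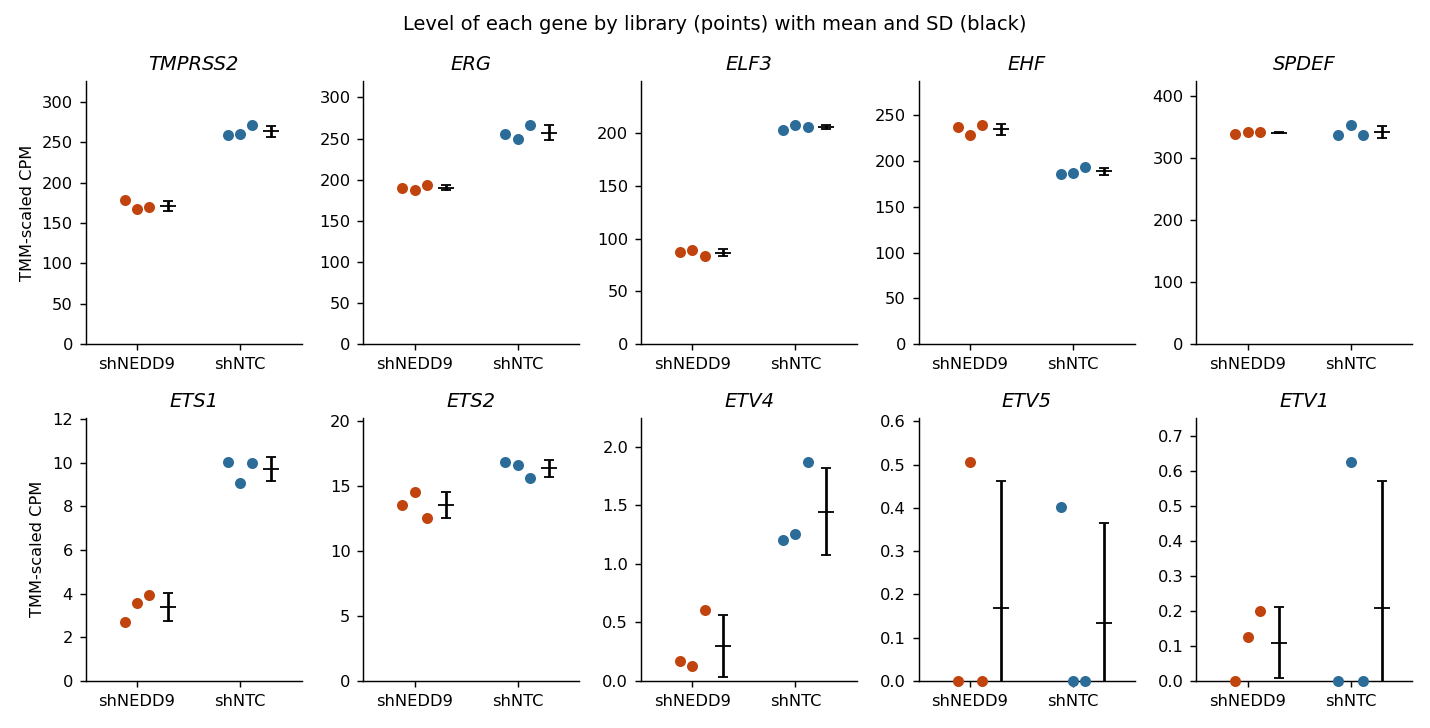
TMM-scaled CPM of each of the 10 genes (vertical axes, each starting at 0) in the 3 shNEDD9 and 3 shNTC libraries (coloured points), with mean and SD in black. TMPRSS2, ERG, ELF3, ETS1, ETS2 and ETV4 lay lower in every shNEDD9 library than in any shNTC library, ETV4 on few counts. EHF lay higher, and the points of SPDEF, ETV5 and ETV1 overlapped.

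TMPRSS2 (ENSG00000184012, GRCh38 chromosome 21, 41464551 to 41531116, minus strand) supplies the promoter of the fusion. It had 178, 166.7 and 169.2 CPM in shNEDD9 libraries 1, 2 and 3, against 258.6, 259.7 and 271.3 CPM in shNTC libraries 1, 2 and 3. Every shNEDD9 library was below every shNTC library, and by the fitted fold change TMPRSS2 was 35.2% lower (1.54-fold, log2 fold change -0.63, SE 0.04, edgeR adjusted p = 4.63e-66). 17.6% of all tested genes had a lower log2 fold change than TMPRSS2.

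ERG (ENSG00000157554, chromosome 21, 38380027 to 38661780, minus strand) encodes the transcription factor that the fusion brings under androgen control. It had 189.6, 187.9 and 193.3 CPM in the shNEDD9 libraries, against 255.4, 249 and 266.6 CPM in the shNTC libraries. The groups were again separate, and by the fitted fold change ERG was 26.2% lower (1.36-fold, log2 fold change -0.44, SE 0.04, edgeR adjusted p = 3.86e-34). Its change was of ordinary size, as 24.6% of tested genes had a lower log2 fold change and 48.6% a larger absolute change. Gene counts do not separate reads of the fusion transcript from reads of the unfused genes, so the TMPRSS2 value may include the first exons of the fusion and the ERG value may include unfused ERG.

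The fusion partners were lower by unequal amounts in shNEDD9. The log2 ratio of ERG counts to TMPRSS2 counts was 0.09, 0.17 and 0.19 in shNEDD9, against -0.02, -0.06 and -0.03 in shNTC. The mean ratio was higher in shNEDD9 by 0.19 on the log2 scale (SE 0.03), with no overlap between the groups (two-sided exact permutation p = 0.1, the smallest that 3 against 3 libraries allow). The ratio within a library shows unequal change, and leaving out any library kept the difference between 0.17 and 0.22.

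Among the members, the lowest adjusted p belonged to ELF3 (ENSG00000163435, chromosome 1, 202007945 to 202017188, plus strand), a factor of epithelial differentiation. Its levels were 87.5, 89.6 and 83.7 CPM in shNEDD9, against 203.5, 208 and 206.4 CPM in shNTC. Every shNEDD9 library lay far below every shNTC library, and ELF3 was 2.37-fold lower (log2 fold change -1.245, SE 0.04, edgeR adjusted p = 7.73e-176). By comparison, 6.26% of tested genes had a lower log2 fold change. Exons of ELF3 overlap those of ELF3-AS1 on the opposite strand, and the strand setting of the counting is not given in the sources used here. ELF3-AS1 itself stood at 34.8 ± 2.72 CPM in shNEDD9 and 41.8 ± 1.80 CPM in shNTC (n = 3 each; log2 fold change -0.23, edgeR adjusted p = 0.00531), and the part of shared reads in the ELF3 value was not tested. A further overlapping gene on the same strand, AL691482, had 3 counts in shNEDD9 and 7 counts in shNTC.

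EHF (ENSG00000135373, chromosome 11, 34621093 to 34661057, plus strand), the closest relative of ELF3 among the members, was the one that rose. It had 237.1, 228.3 and 239.7 CPM in the shNEDD9 libraries, against 185.7, 187.3 and 193.3 CPM in the shNTC libraries. By the fitted fold change the increase was 24.5% (log2 fold change 0.32, SE 0.04, edgeR adjusted p = 1.85e-17), with no overlap between the groups. It was of ordinary size in these cells, as 30.4% of tested genes had a higher log2 fold change.

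SPDEF (ENSG00000124664, chromosome 6, 34537802 to 34556333, minus strand), the prostate-derived ETS factor of luminal and secretory epithelium, had 339, 340.8 and 341 CPM in shNEDD9, against 336.2, 353 and 336.2 CPM in shNTC. The shNEDD9 values lay within the range of the shNTC values. Its log2 fold change was 0.00 (edgeR adjusted p = 0.962), with a 95% interval of -0.06 to 0.06. SPDEF was thus measured closely enough that a change of the size seen in ERG lies outside this interval.

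ETS1 (ENSG00000134954, chromosome 11, 128458761 to 128587558, minus strand), a factor that ERK phosphorylates, had the lowest log2 fold change of the tested members. It was found at 2.68, 3.55 and 3.92 CPM in shNEDD9, against 10.05, 9.08 and 9.98 CPM in shNTC, with no overlap. These values rest on 83 counts in shNEDD9 and 168 counts in shNTC, and ETS1 was 2.82-fold lower (log2 fold change -1.49, SE 0.19, edgeR adjusted p = 5.32e-14).

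ETS2 (ENSG00000157557, chromosome 21, 38805307 to 38824955, plus strand), its paralogue between ERG and TMPRSS2, had 13.6, 14.6 and 12.6 CPM in shNEDD9, against 16.9, 16.6 and 15.6 CPM in shNTC. The groups did not overlap, but the difference was small (log2 fold change -0.28, SE 0.12, edgeR adjusted p = 0.0357). This call ended with DESeq2 (adjusted p = 0.151), without a count filter (edgeR adjusted p = 0.109), with library totals alone (edgeR adjusted p = 0.05004) and without any 1 of 4 libraries: shNEDD9 replicate 1 (edgeR adjusted p = 0.0562), shNEDD9 replicate 3 (0.188), shNTC replicate 1 (0.146) or shNTC replicate 2 (0.0537).

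The 3 PEA3 genes had few counts and did not pass the count filter. ETV4 (ENSG00000175832, chromosome 17, 43527844 to 43579620, minus strand) had 1, 1 and 6 counts in shNEDD9, against 9, 4 and 12 counts in shNTC. In CPM the ETV4 groups were separate, at 0.30 ± 0.26 in shNEDD9 and 1.44 ± 0.37 in shNTC (n = 3 each). ETV4 in shNEDD9 libraries 1 and 2 lay below the floor of 3 counts, so the size of this difference is uncertain. Without that filter ETV4 was called lower among 28548 genes (log2 fold change -2.05, SE 0.59, edgeR adjusted p = 0.00119). Exons of ETV4 overlap those of DHX8 on the opposite strand, which had 2425 counts in shNEDD9 and 1666 counts in shNTC and was not called (edgeR adjusted p = 0.249).

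ETV5 (ENSG00000244405, chromosome 3, 186046308 to 186110318, minus strand) had 0, 4 and 0 counts in shNEDD9 and 3, 0 and 0 counts in shNTC. ETV1 (ENSG00000006468, chromosome 7, 13891228 to 13991425, minus strand) had 0, 1 and 2 counts in shNEDD9 and 0, 2 and 0 counts in shNTC. No library held more than 4 counts of either gene, and ETV5 also shares exon sequence with DGKG on its own strand, so a difference was not detectable at this depth. Floors cover counting error only.

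Levels of different genes were compared as CPM per kb of exon, using the union of all exons in GENCODE release 29. SPDEF was the most abundant member at 177.8 ± 0.59 CPM per kb in shNEDD9 and 178.6 ± 5.07 CPM per kb in shNTC. EHF followed at 53.6 ± 1.36 in shNEDD9 and 43.0 ± 0.92 CPM per kb in shNTC, and ERG at 25.1 ± 0.37 in shNEDD9 and 33.9 ± 1.17 CPM per kb in shNTC. TMPRSS2 stood above ERG, at 28.0 ± 0.97 in shNEDD9 and 43.0 ± 1.15 CPM per kb in shNTC, where it did not differ from EHF beyond the spread. ELF3 stood at 12.1 ± 0.42 in shNEDD9 and 28.6 ± 0.32 CPM per kb in shNTC. Far below these, ETS2 had 2.95 ± 0.22 in shNEDD9 and 3.56 ± 0.15 CPM per kb in shNTC, and ETS1 had 0.47 ± 0.09 in shNEDD9 and 1.36 ± 0.08 CPM per kb in shNTC. ETV4, ETV5 and ETV1 each averaged at most 0.40 CPM per kb, and ETV5 and ETV1 did not differ from each other beyond their spread. The TMPRSS2 level depends on the transcripts counted towards its length: with the exons of the basic transcript set it was 51.6 CPM per kb in shNEDD9 and 79.3 CPM per kb in shNTC, where EHF had 47.7 and thus stood below it.

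Set among all 28 ETS genes of the genome, the order of these levels shifted in the middle. SPDEF and EHF were first and second in both groups. ELF3 ranked 7 of 28 in shNEDD9, below ELF1, ELK1 and ERF, and 4 of 28 in shNTC. ERG ranked 4 in shNEDD9, at a level that did not differ from that of ELF1 (25.7 ± 1.14 CPM per kb) beyond the spread, and 3 in shNTC. The ranks of SPDEF, EHF and ELF3 were the same with the exons of the basic transcript set, with which ERG ranked 3 in both groups. With those lengths EHF, at 47.7 CPM per kb, and ERG, at 47.7 CPM per kb, did not differ beyond their spread in shNTC.

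Summed over the 9 ETS members, the level was 272.1 ± 1.10 CPM per kb in shNEDD9 and 289.5 ± 4.42 CPM per kb in shNTC, a difference of -17.4 (SE 2.63, exact permutation test, two-sided, p = 0.1, the smallest allowed). The make-up differed more than the sum. ERG took 9.20%, 9.13% and 9.32% of it in shNEDD9, against 11.8%, 11.2% and 12.2% in shNTC, a difference of -2.49 percentage points (SE 0.30, exact permutation test, two-sided, p = 0.1). ELF3 took 4.45 ± 0.17% in shNEDD9 and 9.89 ± 0.06% in shNTC. EHF took 19.7 ± 0.43% in shNEDD9 and 14.9 ± 0.37% in shNTC, and SPDEF 65.3 ± 0.28% in shNEDD9 and 61.7 ± 0.95% in shNTC. No share of these 4 genes overlapped between the groups. The SPDEF level itself was not called different (log2 fold change 0.00), so its larger share follows from the lower sum.

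**Figure D2:**
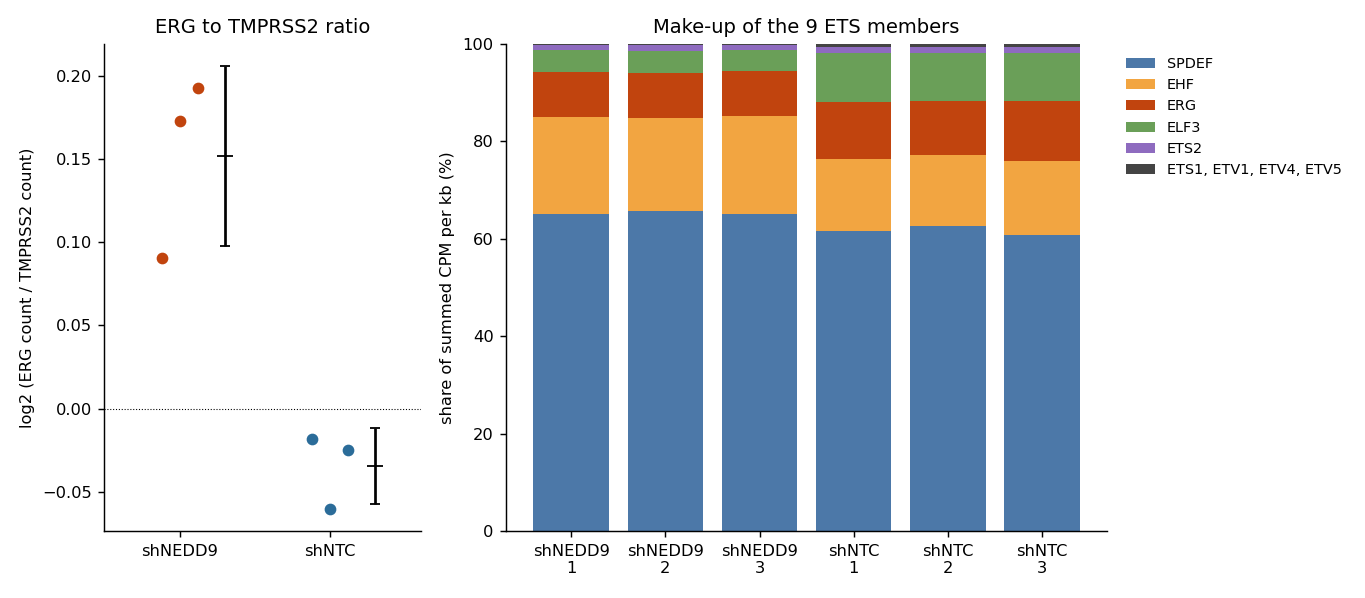
Left, the log2 ratio of ERG counts to TMPRSS2 counts per library (points) with mean and SD (black); the 3 shNEDD9 values lie above 0 and the 3 shNTC values below it. Right, the share in percent of each ETS member in their summed CPM per kb, by library. ELF3 and ERG take smaller shares in shNEDD9 (4.45% and 9.22% on average) than in shNTC (9.89% and 11.7%), and EHF and SPDEF larger ones. The SPDEF level itself was not called different.

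The 19 other ETS genes went both ways. Of these, 14 were tested, and 2 rose, 5 fell and 7 were not called, with a median log2 fold change of -0.09. Among all tested genes 35.5% were called higher and 35.9% lower. ELK3, a ternary complex factor that works with SRF, was 5.87 ± 1.09 CPM in shNEDD9 and 15.4 ± 0.84 CPM in shNTC (n = 3 each, log2 fold change -1.365, SE 0.15, edgeR adjusted p = 9.24e-19). Its relative ELK4 stood at 46.4 ± 2.05 CPM in shNEDD9 and 74.4 ± 5.02 CPM in shNTC (log2 fold change -0.69, SE 0.06). ETV3, a repressor of the family, fell by 0.89 on the log2 scale (SE 0.07). ETV7 fell by 0.79 on the log2 scale (SE 0.28, edgeR adjusted p = 0.00788) on 49 counts in shNEDD9 and 61 counts in shNTC, with overlap between the groups. That call ended with DESeq2 (adjusted p = 0.0861) and without shNEDD9 replicate 1 (edgeR adjusted p = 0.0657), shNEDD9 replicate 2 (0.106) or shNTC replicate 1 (0.418), and its log2 fold change was -0.34 without this last library and -1.52 without shNEDD9 replicate 3.

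The rises in this group were those of ERF and GABPA, outside the rule for named genes and chosen after their values were seen. ERF, a repressor that binds ETS sites, stood at 46.8 ± 1.94 CPM in shNEDD9 and 29.4 ± 3.86 CPM in shNTC (log2 fold change 0.63, SE 0.08, edgeR adjusted p = 1e-14). GABPA, a broadly expressed activator of housekeeping and mitochondrial genes, stood at 34.2 ± 3.13 CPM in shNEDD9 and 24.1 ± 1.79 CPM in shNTC (log2 fold change 0.51, SE 0.09). FLI1, the nearest relative of ERG, had 1 count in all, in shNEDD9.

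**Figure D3:**
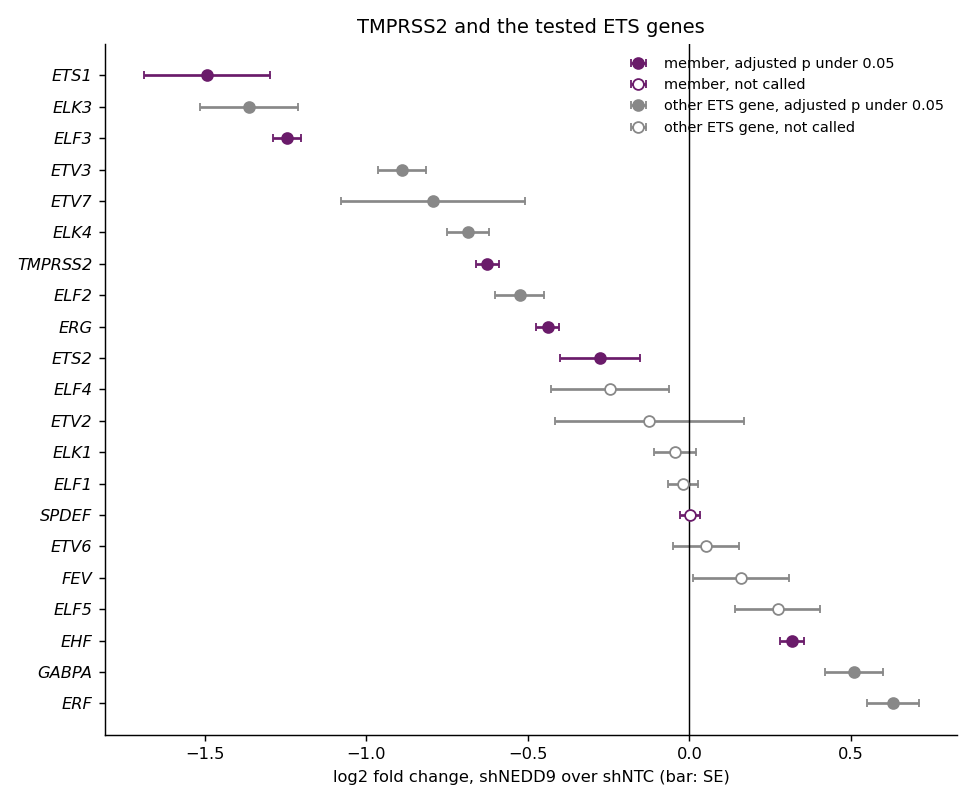
Log2 fold change of shNEDD9 over shNTC with SE (horizontal axis) for TMPRSS2 and the 20 tested ETS genes, members in purple and other ETS genes in grey; filled points had an adjusted p under 0.05. ETS1, ELK3 and ELF3 lie beyond -1, SPDEF lies at 0.00, and EHF, GABPA and ERF are the called genes to the right of 0.

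On chromosome 21 the starts of ERG and TMPRSS2 lie 2.87 Mb apart, and the genes between them showed no common direction. Of 15 listed genes wholly between the partners, ETS2 included, 12 were tested. Of these, 3 rose, 6 fell and 3 were not called (median log2 fold change -0.29), where 71.4% of all tested genes were called. PCP4, which encodes a small calmodulin-binding protein, stood at 14.1 ± 2.48 CPM in shNEDD9 and 32.3 ± 2.36 CPM in shNTC (log2 fold change -1.23, SE 0.10). PSMG1, which encodes a proteasome assembly chaperone, stood at 51.05 ± 1.251 CPM in shNEDD9 and 26.4 ± 2.26 CPM in shNTC (log2 fold change 0.98, SE 0.08). FAM3B, a secreted factor gene towards the TMPRSS2 end, rose by 0.83 on the log2 scale (SE 0.08). Beyond TMPRSS2, the zinc finger gene ZBTB21 rose by 0.89 on the log2 scale (SE 0.08). The copy number of this region in either line was not tested.

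**Figure D4:**
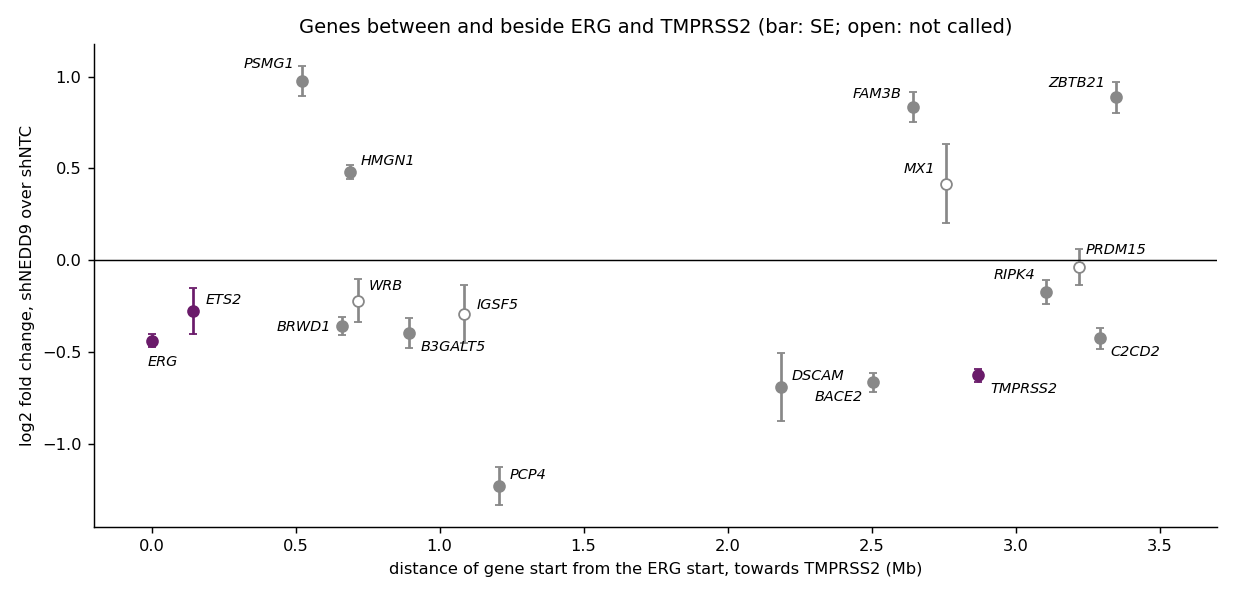
Log2 fold change of shNEDD9 over shNTC with SE (vertical axis) of tested genes around ERG and TMPRSS2 on chromosome 21 against the distance of their start from that of ERG in Mb; purple marks members and open points were not called. Genes above 0, such as PSMG1 and FAM3B, alternate with genes below 0, such as PCP4, between ERG at 0.0 and TMPRSS2 at 2.87 Mb.

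Other genes that supply promoters to ETS fusions in prostate cancer went both ways. All 9 listed were tested and called, 5 higher and 4 lower (median log2 fold change 0.22), where 71.4% of all tested genes were called. SLC45A3, a prostate-specific transporter gene and the partner that fell most, stood at 173.9 ± 0.35 CPM in shNEDD9 and 682.9 ± 20.8 CPM in shNTC (n = 3 each, log2 fold change -1.97, SE 0.03, edgeR adjusted p below 1e-300). CANT1, which encodes a nucleotidase, fell by 0.92 on the log2 scale (SE 0.03). HNRNPA2B1, an RNA-binding protein gene, rose by 0.75 (SE 0.02) and ACSL3, a fatty acid activating enzyme gene, by 0.71 (SE 0.03).

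Membrane proteases of the same type as TMPRSS2 were listed with the inhibitors that hold them in check. Of 13 listed, 8 were tested; 5 fell, 1 rose and 2 were not called (median log2 fold change -0.49), where 71.4% of all tested genes were called and 35.9% were called lower. ST14, which encodes matriptase, stood at 333.3 ± 2.54 CPM in shNEDD9 and 492.3 ± 14.0 CPM in shNTC (log2 fold change -0.57, SE 0.03, edgeR adjusted p = 1.55e-85). SPINT1, which encodes a Kunitz-type inhibitor of matriptase, stood at 221.1 ± 2.84 CPM in shNEDD9 and 386.3 ± 23.6 CPM in shNTC (log2 fold change -0.79, SE 0.03). HPN, which encodes hepsin, and SPINT2, a second inhibitor gene, named after their values were seen, fell by 0.51 (SE 0.05) and 0.47 (SE 0.03) on the log2 scale. TMPRSS4 stood at 12.9 ± 0.76 CPM in shNEDD9 and 8.92 ± 2.30 CPM in shNTC (log2 fold change 0.63, SE 0.15), and its log2 fold change was 0.39 without shNTC replicate 1 (edgeR adjusted p = 0.0337). TMPRSS11E, at 23 counts in shNEDD9 and 39 counts in shNTC, fell by 1.225 on the log2 scale (edgeR adjusted p = 0.00193), a call that ended without shNEDD9 replicate 3 (0.055) or shNTC replicate 1 (0.0706).

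Regulators of ETS abundance moved modestly. Of 11 listed, all were tested. Among them 1 rose, 6 fell and 4 were not called, with log2 fold changes from -0.53 to 0.25 (median -0.27). Of all tested genes 71.4% were called, 35.9% lower. USP9X, a deubiquitinase gene, stood at 248.7 ± 3.84 CPM in shNEDD9 and 345.5 ± 5.75 CPM in shNTC (log2 fold change -0.475, SE 0.03, edgeR adjusted p = 1.11e-48). FBXW7, which encodes a ubiquitin ligase substrate receptor, fell by 0.53 on the log2 scale (SE 0.13). ATXN1L and ATXN1, partners of the repressor CIC that acts on the PEA3 genes, fell by 0.47 (SE 0.08) and 0.30 (SE 0.09) on the log2 scale; the ATXN1 call ended without shNTC replicate 3 (edgeR adjusted p = 0.0519). SPOP, a ubiquitin ligase adaptor gene, was the 1 gene of this list that rose and was named after its value was seen. It stood at 120.8 ± 4.43 CPM in shNEDD9 and 101.3 ± 2.23 CPM in shNTC (log2 fold change 0.25, SE 0.05). COP1 and CUL4A, also named after their values were seen, fell by 0.27 (SE 0.07) and 0.29 (SE 0.06) on the log2 scale. TRIM25, DDB1, DET1 and CIC were the genes not called. The effect of these changes on ETS protein was not tested.

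The genes whose pattern over the 6 libraries lay closest to the fusion partners were found by Euclidean distance of centred log2 CPM. The search covered the 11439 genes that averaged 5 CPM or more and had counts in every library. For TMPRSS2 these were AP1AR (distance 0.036), RNF123 (0.057) and PFN2 (0.057), with log2 fold changes of -0.65, -0.64 and -0.60. For ERG they were TP53BP2 (0.043), AGO4 (0.048) and PDE9A (0.048), with log2 fold changes of -0.42, -0.45 and -0.47. These distances reflect the 1 contrast that all 6 libraries share.

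Most leukocyte and fibroblast markers had too few counts to be tested, but LUM in both groups and LYZ in shNTC stood well above the floor. Among 6 leukocyte markers, 2 were tested, 1 fell and 1 was not called; CD3E had 0 counts and PTPRC had 1, and their summed level was 5.69 to 6.63 CPM in shNEDD9 and 18.4 to 25.4 CPM in shNTC. Nearly all of that difference came from LYZ, at 1.498 ± 0.155 CPM in shNEDD9 and 16.8 ± 2.83 CPM in shNTC. Among 7 fibroblast markers, 2 were tested, 1 rose and 1 fell; THY1 had 0 counts, and the summed level was 47.3 to 54.4 CPM in shNEDD9 and 26.3 to 33.5 CPM in shNTC, mostly from LUM at 45.1 ± 3.17 CPM in shNEDD9 and 19.1 ± 0.57 CPM in shNTC. COL1A1 stood at 4.62 ± 0.64 CPM in shNEDD9 and 7.21 ± 2.25 CPM in shNTC (edgeR adjusted p = 0.0106), a call that ended with DESeq2 (adjusted p = 0.0587) and without shNTC replicate 2 (edgeR adjusted p = 0.113). For comparison, 71.4% of all tested genes were called. The part of these leukocyte and fibroblast markers in the values of the ETS members was not tested.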

How the data were processed

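Per the labels' protocols, column-purified RNA went into a strand-marking total RNA library kit. Values are the authors' deposited counts of reads per gene, not normalised. The submitters' processing notes name, without roles, STAR 2.5.3a, Subread 1.6.2, featureCounts, cutadapt 1.9, FastQC 0.11.5 and the builds GRCh38 and hg19; the annotation release and strand setting are not given in the sources used here. 1 row, empty in every column, was left out. All 58735 identifiers occur in GENCODE release 29, which gave positions and exon lengths.

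Libraries were grouped by their titles. Counts were tested with edgeR 4.0.16 in R 4.3.3 (glmQLFit with robust estimation, glmQLFTest, TMM factors, filterByExpr at its minimum count of 10, no covariate), with Benjamini-Hochberg adjustment over 13958 genes. Errors are approximate: the absolute unmoderated log2 fold change divided by the square root of F, and 95% intervals are 1.96 of these SE. DESeq2 1.42.0, limma-voom (limma 3.58.1), RLE factors, library totals alone, 2 other count filters, a replicate block and leaving out each library were alternatives. Counts were also simulated with the common biological coefficient of variation (1.65%) for every gene, and 13723 genes were tested. At each fold, 50 genes were changed, drawn only from those with higher expected counts. Of genes changed 1.25-fold 70% were recovered, 96% at 1.5-fold and 100% at 2-fold, and 10 of 193 calls were false. These rates do not cover genes with few counts, or data in which 71.4% of tested genes are called.

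Chi-square over degrees of freedom between replicates was 1.14 to 1.20, slightly above sampling noise, and the common biological coefficient of variation was 1.65%. Such a small spread cannot show that the libraries come from independent cultures or infections. The edgeR p-values measure only this spread. Each library was counted as 1 replicate, following the design text. The members and lists were chosen with earlier results of these data known. Beside the members, the rule for named genes took NEDD9, up to 4 called genes of largest change per list at a mean of at least 1 CPM (the 2 most abundant where none was called), and the 3 nearest patterns of TMPRSS2 and of ERG. Individual values of some listed genes are not reported here.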

Additional observations from a re-analysis of the deposited data

How the results depend on the processing

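For the 7 tested members, 80 of 91 values under the alternatives kept their direction and their side of the threshold, among them all values of TMPRSS2, ERG, ETS1, ELF3 and EHF. ETS2 lost its call with library totals alone (log2 fold change -0.26), without a count filter (-0.255) and with DESeq2 (-0.27), and it ranged from -0.33 to -0.21 with a library left out; the cause was not tested. SPDEF, never called, changed sign with DESeq2 (-6.83e-05) and with the replicate block (-0.0022), and ranged from -0.0098 to 0.017 with a library left out. For the 35 other named genes, 446 of 455 values kept direction and call and 0 reversed. Endothelial markers called lower were 1 without a count filter, against 0. Fibroblast markers called lower were 3 without a count filter, 2 at a mean of at least 1 CPM and 0 with DESeq2, against 1, and 0 to 2 with a library left out. Leukocyte markers called higher were 0 to 1, and membrane proteases and inhibitors called higher 1 to 2, with a library left out. The ERG share differed by -3.30 percentage points in CPM and by -3.06 with the basic exon lengths, a setting chosen after seeing the data. The replicate numbers are not shown to pair the samples, since deviations of same-numbered libraries correlated at -0.024, -0.0020 and 0.037; with the replicate block the ERG to TMPRSS2 difference was 0.19 (exact sign-flip p = 0.25, the smallest 3 pairs allow) and the block changed no call of a member. Depth limits ETV1 and ETV5, whose counts lie near the floor in every library, and ETV4, whose counts lie below it in shNEDD9 libraries 1 and 2.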
